A study of Mus musculus with 95 samples.

Results

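The cytochrome P450 genes described here comprise 59 mouse genes of 29 subfamilies measured in kidneys of SNF1 mice. They were taken by symbol: every probe set whose single gene symbol is Cyp followed by a family number, a subfamily letter and a gene number was included, and the Cyp11, Cyp17 and Cyp21 genes, which belong to the adrenal gland, were left out. Of 45037 probe sets tested, 71 belong to these genes, and each gene was represented by the one that was brightest on average over the 95 arrays. SNF1 mice are the lupus-prone first generation cross of SWR and NZB mice. Females were left untreated or, at an age of 9 weeks, were injected intraperitoneally with pristane, a hydrocarbon oil that accelerates lupus nephritis, and whole kidneys were taken for RNA. Kidneys were collected 2, 4, 8, 12 and 14 weeks after the injection, and in that order the untreated groups held 10, 9, 10, 10 and 5 mice and the pristane groups 9, 10, 8, 8 and 9. A further 7 untreated mice were taken at week 0. All mice, controls included, carry the SNF1 background, which develops nephritis with age, and the sources used here do not say whether the untreated mice were given a vehicle. Each array is treated as a separate mouse, as numbered in the labels.

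Cytochromes P450 are haem enzymes that insert an oxygen atom into lipids, steroids, vitamins and drugs. Those of the endoplasmic reticulum receive their electrons from cytochrome P450 reductase, sometimes with cytochrome b5, and those of mitochondria from ferredoxin. In the kidney they are concentrated in the proximal tubule, where members of the CYP2 and CYP4 families oxidise arachidonic and other fatty acids and where the active form of vitamin D is made and degraded.

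All values are log2 expression after RMA normalization, so that 1 unit is a 2-fold change. The scale ends at a floor of 2.21. Of the 59 genes, 24 had a mean over 4, a level that lies at the 46.9th percentile of all probe sets, and 35 had a mean of 4 or less. Of these dim genes, 20 stood at the floor on 84 or more of the 95 arrays. They include genes that define the liver's set of P450 enzymes: Cyp1a1 and Cyp1a2, the classical targets of the aryl hydrocarbon receptor, Cyp2b9, Cyp2c29, Cyp3a11, a main drug-metabolising enzyme of the liver, Cyp7a1, the first enzyme of bile acid synthesis, and Cyp8b1, which acts later in it. Cyp4x1 and Cyp3a25 stood at the floor on all 95 arrays. The means over all arrays were 2.30 for Cyp26a1, a retinoic acid hydroxylase, 2.59 for Cyp2g1, an olfactory enzyme, and 2.24 for Cyp2u1, a fatty acid hydroxylase. Cyp2u1 and Cyp2c70 are not among the 20, but each held a single value just above the floor on most arrays. These values were 2.24 on 90 arrays and 2.22 on 87 arrays. A value at the floor carries no information on the level of the transcript, and the same holds for a difference between groups that both lie there.

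The genes with measurable signal cover most roles of the family. The CYP2 family contributed 9 of the 24, among them Cyp2j5, with a mean of 11.63, Cyp2a5 with 11.06, Cyp2d26 with 10.72 and Cyp2e1 with 10.24. The CYP4 family of fatty acid hydroxylases contributed 6, with means between 4.77 for Cyp4f13 and 11.07 for Cyp4a10. The vitamin D enzymes Cyp24a1 and Cyp27b1 had means of 9.31 and 5.18, whereas Cyp2r1, which carries out the first hydroxylation of vitamin D in the liver, had a mean of 2.33. The sterol enzymes Cyp7b1, Cyp27a1, Cyp39a1 and Cyp46a1, the retinoic acid hydroxylase Cyp26b1, the aryl hydrocarbon receptor target Cyp1b1 and Cyp20a1, an enzyme without a settled substrate, made up the rest. These means describe each probe set and are not an order of transcript levels between genes. In 10 of the 24 genes a single value recurred to 6 decimals on 5 or more arrays, up to 17 arrays for the value 6.71 of Cyp2c23, so these genes hold ties.

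Between weeks 2 and 12 no cytochrome P450 gene passed the test between pristane and untreated kidneys. In limma, 0 of 59 passed an adjusted p of 0.05 in each of these comparisons, while the shares of all 45037 probe sets that passed were 0.249%, 0.138%, 0.0866% and 0.0244% in the order of the weeks. The numbers of members with an unadjusted p under 0.05 were 6, 5, 4 and 2 in the same order. At week 14, 6 of 59 genes passed, 4 higher and 2 lower after pristane, which is 10.2% of the family against 8.31% of all probe sets (4.57% higher and 3.73% lower). All 6 called genes were among the 24 members with a mean over 4, which is 25% of them, against a call rate of 14.4% among all probe sets of that range. The median difference of the 24 genes at week 14 was -0.08 on the log2 scale, beside -0.04 for all probe sets with a mean over 4.

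**Figure D1:**
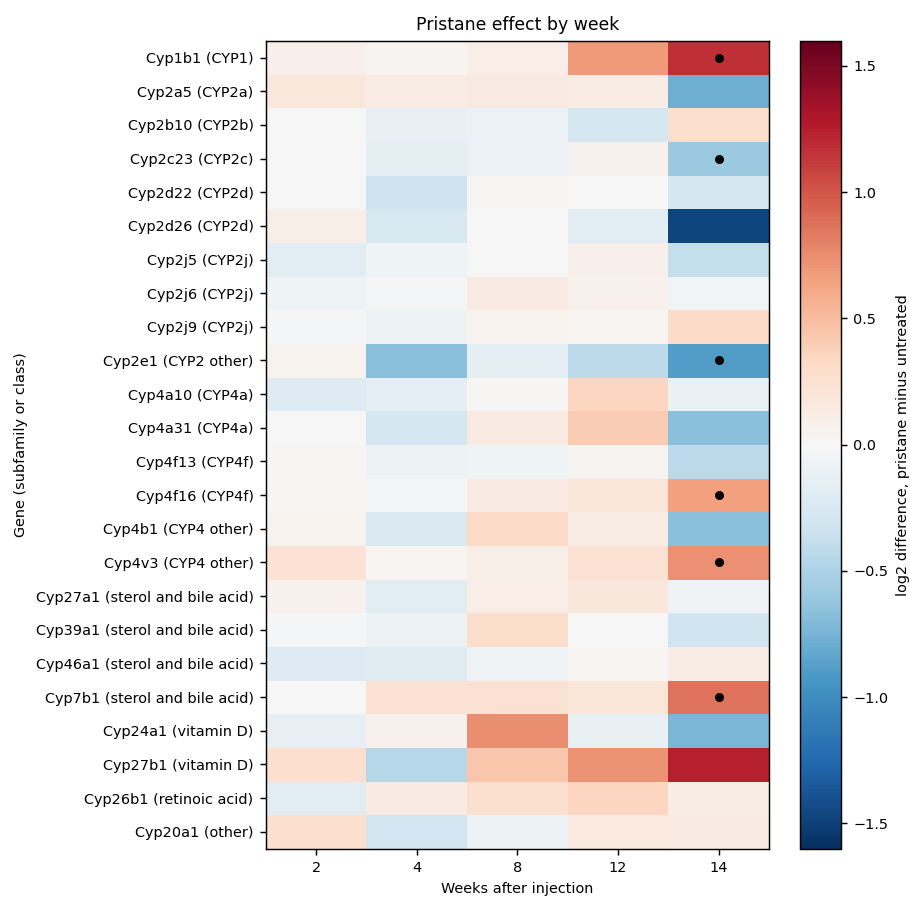
Pristane minus untreated difference on the log2 scale (colour) for the 24 cytochrome P450 genes with a mean over 4, in rows grouped by subfamily or role, at weeks 2, 4, 8, 12 and 14 in columns. A black dot marks an adjusted p under 0.05 in limma; the 6 dots all stand in the column of week 14, and the darkest blue cell is Cyp2d26 with -1.47, which has no dot.

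The genes that rose at week 14 were Cyp1b1, Cyp4v3, Cyp4f16 and Cyp7b1, and those that fell were Cyp2e1 and Cyp2c23. The 250 bases before the start of transcription are shown for the 4 of these 6 genes that were found in the RefSeq promoter table (build GRCm38.p6, 46 of 59 genes matched), since these are the genes whose level differed. Capitals mark 4 motifs searched on both strands. They are the core bound by the aryl hydrocarbon receptor, which reads GCGTG, the box bound by Sp1, which reads GGGCGG, the box bound by NF-Y, which reads CCAAT, and the box of the basal machinery, which reads TATAAA.
Cyp1b1, chr17:79715062-79715311, minus strand: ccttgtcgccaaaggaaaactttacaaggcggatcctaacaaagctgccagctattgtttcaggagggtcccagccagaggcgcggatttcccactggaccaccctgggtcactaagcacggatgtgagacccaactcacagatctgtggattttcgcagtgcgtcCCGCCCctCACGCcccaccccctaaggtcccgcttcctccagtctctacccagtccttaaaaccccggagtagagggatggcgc
Cyp4v3, chr8:45333164-45333413, minus strand: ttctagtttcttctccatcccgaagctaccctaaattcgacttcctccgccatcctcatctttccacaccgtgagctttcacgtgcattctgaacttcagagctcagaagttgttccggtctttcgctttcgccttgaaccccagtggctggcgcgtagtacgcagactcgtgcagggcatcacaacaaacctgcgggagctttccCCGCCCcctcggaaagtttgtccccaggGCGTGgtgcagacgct
Cyp4f16, chr17:32536307-32536556, plus strand: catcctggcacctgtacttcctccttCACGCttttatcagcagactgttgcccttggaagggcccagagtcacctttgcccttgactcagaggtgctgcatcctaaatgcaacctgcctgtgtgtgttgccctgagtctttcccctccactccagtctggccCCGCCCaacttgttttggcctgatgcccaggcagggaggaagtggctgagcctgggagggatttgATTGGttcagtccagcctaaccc
Cyp2e1, chr7:140763569-140763818, plus strand: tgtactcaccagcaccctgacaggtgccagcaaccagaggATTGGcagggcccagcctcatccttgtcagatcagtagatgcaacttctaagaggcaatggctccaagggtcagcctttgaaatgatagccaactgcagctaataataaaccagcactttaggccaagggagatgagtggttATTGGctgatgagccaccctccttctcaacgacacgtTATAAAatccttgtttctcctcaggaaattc

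GCGTG occurred in each of the 3 promoters of genes that rose, 76 bases upstream of the start in Cyp1b1, 16 in Cyp4v3 and 224 in Cyp4f16, and not in the window of Cyp2e1. The same letters were present in 30.9% of the 27025 genes in the table and in 11 of the 46 members matched, so their presence is common. A gene was counted if the window of any of its starts held the letters. GGGCGG was found in the same 3 windows, and in 35.4% of all genes. The Cyp2e1 window held TATAAA 31 bases upstream of the start, a sequence found in 14.3% of all genes and in 18 of the 46 members. CCAAT occurred at 2 places in Cyp2e1 and once in Cyp4f16, and in 37.5% of all genes. GTTAAT, part of the site of the tubule factor HNF1, was in 7.49% of all genes and AGGTCA, the half-site of many nuclear receptors, in 15.8%. Neither was in these 4 windows. No factor's binding was measured, so these matches are a description of the letters.

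Cyp1b1 metabolises polycyclic hydrocarbons and oestrogens and, unlike Cyp1a1 and Cyp1a2, is expressed in many mesenchymal cells. At week 14 its values were 9.76, 9.36, 9.54, 9.82 and 9.21 in the 5 untreated kidneys. The 9 pristane kidneys had 10.08, 9.69, 10.78, 11.16, 10.63, 11.13, 10.92, 10.84 and 11.11. Only the kidney of pristane mouse 2, at 9.69, lay within the untreated range, and the other 8 lay above every untreated kidney. The difference was 1.17 (SE 0.240), a 2.25-fold increase with an adjusted p of 0.0180 in limma, and Cyp1b1 was the only member called with a change over 2-fold. Its second probe set, at a lower level, differed by 1.02 (adjusted p = 0.0321), and another lay at or near the floor. Cyp1a1 and Cyp1a2 stayed at or near the floor, with the highest value of Cyp1a1 on any array at 2.69.

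Cyp1b1 did not pass in the earlier weeks. The untreated medians ran from 8.91 at week 0 to 9.54 at week 14, and pristane medians were 9.30, 9.16, 9.19, 9.73 and 10.84 at weeks 2, 4, 8, 12 and 14. At week 12 the difference was 0.69 (SE 0.295, adjusted p = 0.786), with 1 untreated kidney, that of mouse 10, at 10.86, above all 8 pristane kidneys of that week, while the next untreated value was 9.35. Without that mouse the week 12 difference was 0.88 (adjusted p = 0.0589). The change of the effect from week 12 to week 14 was 0.48 (adjusted p = 0.623) and did not pass.

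Cyp4v3, a fatty acid omega-hydroxylase expressed in many tissues, separated the groups completely. Untreated kidneys had 7.38, 7.38, 7.24, 7.41 and 7.23 at week 14, a narrow range. Pristane kidneys had 7.83, 7.42, 8.43, 8.63, 8.06, 8.10, 8.16, 7.86 and 8.07. All 9 lay above the highest untreated kidney, that of mouse 2 by the smallest margin. The difference was 0.73 (SE 0.159, 1.66-fold, adjusted p = 0.0213 in limma), and a second probe set of the gene gave 0.60 (adjusted p = 0.0991). At week 2 the difference of Cyp4v3 was 0.23 (adjusted p = 0.418).

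Cyp4f16 belongs to the CYP4f subfamily, whose enzymes hydroxylate leukotrienes and fatty acids. Its untreated values at week 14 were 6.20, 6.03, 6.12, 5.80 and 5.84. After pristane the values were 6.12, 6.28, 6.87, 6.74, 6.53, 6.62, 6.61, 7.11 and 7.09, so that 8 of 9 exceeded every untreated kidney and mouse 1 did not. The difference was 0.66 (SE 0.158, 1.58-fold, adjusted p = 0.0296 in limma). Other CYP4f genes did not pass: Cyp4f13 differed by -0.43 (adjusted p = 0.103) and 7 of 9 pristane kidneys lay below all untreated ones, and Cyp4f18, which inactivates leukotrienes in neutrophils, had a mean of 2.76 and a highest value of 3.42 on any array.

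Cyp7b1 hydroxylates oxysterols and steroid precursors and thereby removes signalling sterols. Its untreated values at week 14 were 5.74, 4.97, 5.03, 5.15 and 5.11, with mouse 1 apart from the others. Its pristane values were 5.48, 5.87, 6.46, 6.43, 6.07, 6.0, 6.21, 5.48 and 6.64. Of the 9 pristane kidneys 7 lay above all untreated kidneys, and mice 1 and 8 lay within the untreated range at the same recurring value of 5.48. The difference was 0.87 (SE 0.208, 1.83-fold, adjusted p = 0.0296 in limma), and the second probe set, of mean 2.94, gave 1.05 (adjusted p = 0.0499). The mean of the gene's 3 probe sets differed by 0.65 (adjusted p = 0.0256 in limma), less than either, so the remaining probe set differed less. The other sterol enzymes did not pass at week 14. Cyp27a1, the mitochondrial sterol side-chain hydroxylase, differed by -0.05, Cyp39a1, another oxysterol hydroxylase, by -0.32 (and by 0.28 at week 8, adjusted p = 1) and Cyp46a1, the cholesterol hydroxylase of neurons, by 0.12.

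Cyp2e1, which oxidises ethanol, acetone and other small molecules, fell in every pristane kidney relative to every untreated one. Its untreated values at week 14 were 10.16, 9.93, 9.63, 10.65 and 10.10. Its pristane values were 9.42, 9.63, 9.21, 8.78, 9.03, 9.54, 8.53, 9.38 and 9.31. All 9 lay below the lowest untreated kidney, although the value of pristane mouse 2 and that of untreated mouse 3 both round to 9.63. Cyp2e1 fell by 0.89 on the log2 scale (SE 0.199, 1.85-fold lower, adjusted p = 0.0242 in limma).

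The level of Cyp2e1 was also lower at week 4, where 7 of 10 pristane kidneys lay below all untreated kidneys, with a range of 9.84 to 10.87 and a median of 10.21 against 10.50 to 11.53 and a median of 11.03. That difference of -0.66 (SE 0.159) had an adjusted p of 0.169 and did not pass. At weeks 2, 8 and 12 the differences were 0.06, -0.15 and -0.42.

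Cyp2c23 is an arachidonic acid epoxygenase of the kidney, which forms vasodilating epoxides. At week 14 its untreated values were 6.84, 6.93, 7.06, 7.66 and 7.02, and mouse 4 stood above the others. After pristane they were 6.71, 6.91, 6.30, 6.52, 5.88, 6.47, 6.71, 6.46 and 6.66, with 8 of 9 below all untreated kidneys. Cyp2c23 fell by 0.59 on the log2 scale (SE 0.168), with an adjusted p of 0.0499 at the edge of the threshold. Its change of effect from week 12 to week 14 was -0.65 (adjusted p = 0.0740).

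**Figure D2:**
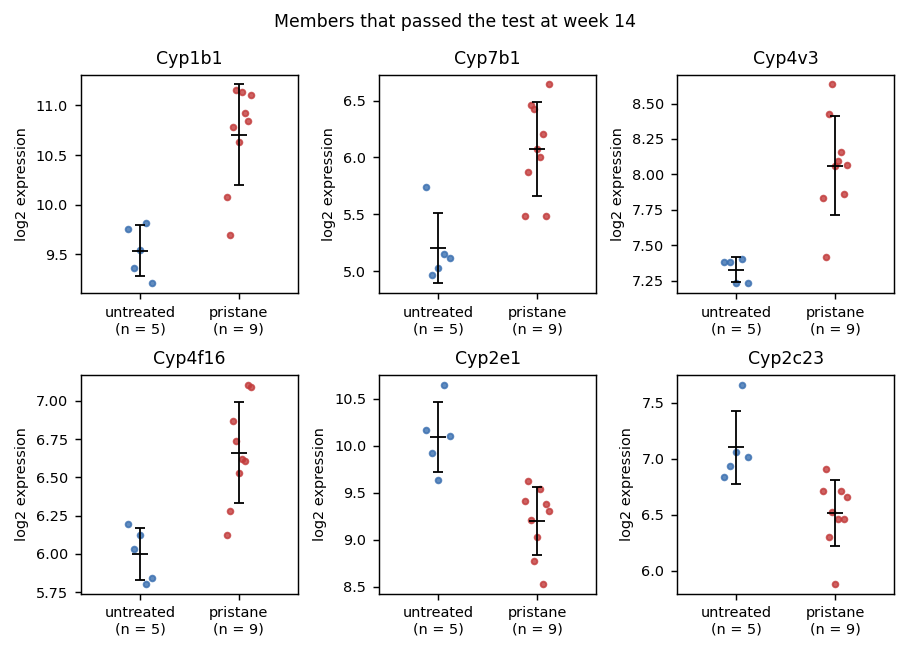
Log2 expression at week 14 of the 6 genes that passed the test, 1 panel a gene, with a point for each mouse and the mean with its SD as bars; untreated kidneys (n = 5) are blue and pristane kidneys (n = 9) red, and each panel has its own axis that does not start at 0. The groups do not overlap for Cyp4v3 and Cyp2e1, and 1 or 2 pristane kidneys reach into the untreated range for the other 4 genes.

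The 6 calls depended on single kidneys. Without untreated mouse 2 or untreated mouse 5 the number called was 0, without untreated mouse 3 or 4 it was 1, without pristane mouse 3 or 4 it was 3, and without pristane mouse 2 it was 11. The share of all probe sets called was not taken in these fits. Cyp1b1 lost its call without untreated mouse 2, 3 or 5, and its adjusted p then was at most 0.0541. Each of the 6 genes kept its direction in all 14 fits that left out a mouse, and the highest adjusted p in these was 0.127, for Cyp2c23 without untreated mouse 4.

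Several other members with bright probe sets had large differences at week 14 that did not pass. Cyp2d26 is a CYP2d enzyme. Its untreated values were 10.67, 10.98, 10.52, 11.33 and 10.61, and its pristane values were 10.42, 10.93, 9.11, 7.95, 9.93, 8.12, 9.19, 9.75 and 8.73. Pristane mouse 2 lay within the untreated range, mouse 1 just below it, and the remaining 7 were 9.93 or lower. The difference was -1.47 (SE 0.461, 95% interval -2.47 to -0.47), 2.78-fold lower, with an adjusted p of 0.0668. Without pristane mouse 2 the adjusted p was 0.0160, and without pristane mouse 1 it was 0.0359. From week 2 to week 12 the difference lay between -0.26 and 0.10.

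Cyp2a5, a coumarin hydroxylase, and Cyp4b1, which oxidises fatty acids and protoxins, had the same form. Cyp2a5 was 11.68, 11.40, 11.26, 11.64 and 11.29 in untreated kidneys and 11.37, 11.64, 10.43, 9.59, 10.50, 10.60, 10.19, 11.46 and 10.31 after pristane. Mice 1, 2 and 8 lay in the untreated range and the other 6 below it, with a difference of -0.78 (SE 0.308, adjusted p = 0.138). Cyp4b1 ranged from 10.55 to 10.87 in untreated kidneys and from 9.45 to 10.68, median 9.98, after pristane, with 8 of 9 below all untreated kidneys and a difference of -0.67 (SE 0.194, adjusted p = 0.0522). It passed without pristane mouse 1, 2 or 6, with adjusted p of 0.0327, 0.0290 and 0.0337. At week 8 Cyp4b1 differed by 0.31 in the other direction (adjusted p = 1).

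The arachidonic acid epoxygenases of the CYP2j subfamily depended on the probe set. Cyp2j5, which marks the proximal tubule, ranged from 11.61 to 11.87 in untreated kidneys and from 10.85 to 11.84, median 11.35, after pristane, with a difference of -0.38 (SE 0.134, adjusted p = 0.101). Without pristane mouse 1 or 2 it passed (adjusted p = 0.0297 and 0.0480). Its other probe set, at a lower level, differed by -1.40 (SE 0.340, adjusted p = 0.0306). Cyp2j6 behaved alike: -0.04 (adjusted p = 0.987) by its brighter probe set and -0.98 (SE 0.238, adjusted p = 0.0302) by its other one. Cyp2j9 differed by 0.30 (adjusted p = 0.375). With every probe set of the family counted, 10 of 71 passed, from 8 genes, 4 higher and 4 lower. Of all probe sets 8.31% passed at week 14, and of those with a mean over 4 it was 14.4%.

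The CYP4a enzymes are fatty acid omega-hydroxylases and targets of the nuclear receptor PPAR alpha. Cyp4a10 overlapped between the groups at week 14, with a difference of -0.11 (95% interval -0.42 to 0.20). At week 12 it was higher after pristane in all 8 kidneys relative to the untreated mean, from 11.18 to 11.67, median 11.36, against 10.70 to 11.29, median 11.05. That difference of 0.34 (SE 0.0877, 1.27-fold) had an adjusted p of 0.350 and did not pass, and without untreated mouse 10 the adjusted p was 0.0884. At week 2 its difference was -0.21 (adjusted p = 0.567). Cyp4a31 differed by 0.41 at week 12 and -0.67 at week 14 (adjusted p = 0.827 and 0.147). Of 8 PPAR alpha target genes measured, 1 passed at week 12, Fabp1, a fatty acid binding protein, which rose by 1.34 (SE 0.205, adjusted p = 0.0344), with 4 of 8 at an unadjusted p under 0.05 and a list median of 0.29. At week 14, 0 of 8 passed, with 3 at an unadjusted p under 0.05 and a median of -0.24, while Ppara itself, the receptor, fell by 1.35 on the log2 scale (adjusted p = 0.0175).

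The vitamin D enzymes had uneven values after pristane. Cyp27b1, the mitochondrial enzyme that makes active vitamin D, was 4.61, 4.75, 4.40, 5.06 and 4.37 in the untreated kidneys of week 14. After pristane it was 5.16, 5.03, 6.10, 7.65, 5.05, 4.40, 6.95, 5.36 and 7.23, so that 6 of 9 lay above all untreated kidneys and mice 2, 5 and 6 did not. The difference of 1.24 (SE 0.520, 95% interval 0.11 to 2.37) had an adjusted p of 0.162. Cyp24a1, which degrades active vitamin D, was 10.18, 10.22, 9.53, 9.91 and 9.09 without and 10.01, 10.24, 8.94, 6.80, 9.58, 10.26, 8.51, 9.05 and 8.11 with pristane. Its values covered the whole untreated range and extended below it in 5 of 9 kidneys, with a difference of -0.73 (SE 0.529, adjusted p = 0.475). Pristane mouse 4 had both the highest Cyp27b1 and the lowest Cyp24a1.

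In the earlier weeks Cyp24a1 differed by 0.74 at week 8, with a pristane range of 9.35 to 10.27, median 10.11, against 8.10 to 10.23, median 9.32 (SE 0.258, unadjusted p = 0.0107, adjusted p = 1 in limma). Cyp27b1 differed by 0.27, -0.46, 0.45 and 0.71 in the 4 earlier comparisons, in the order of the weeks, and none passed (adjusted p = 0.846, 0.849, 1 and 0.827). At week 14, where 8.31% of all probe sets passed, 2 of 8 other genes of vitamin D and phosphate handling passed, both lower. They were Kl, the FGF23 coreceptor, which fell by 1.17 on the log2 scale (adjusted p = 0.0463), and Calb1, a calcium-binding protein of the distal tubule, which fell by 1.09 (adjusted p = 0.0318). The vitamin D receptor gene Vdr differed by -0.52 (adjusted p = 0.127), and the phosphate transporter gene Slc34a3 by -1.89 (adjusted p = 0.0980).

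**Figure D3:**
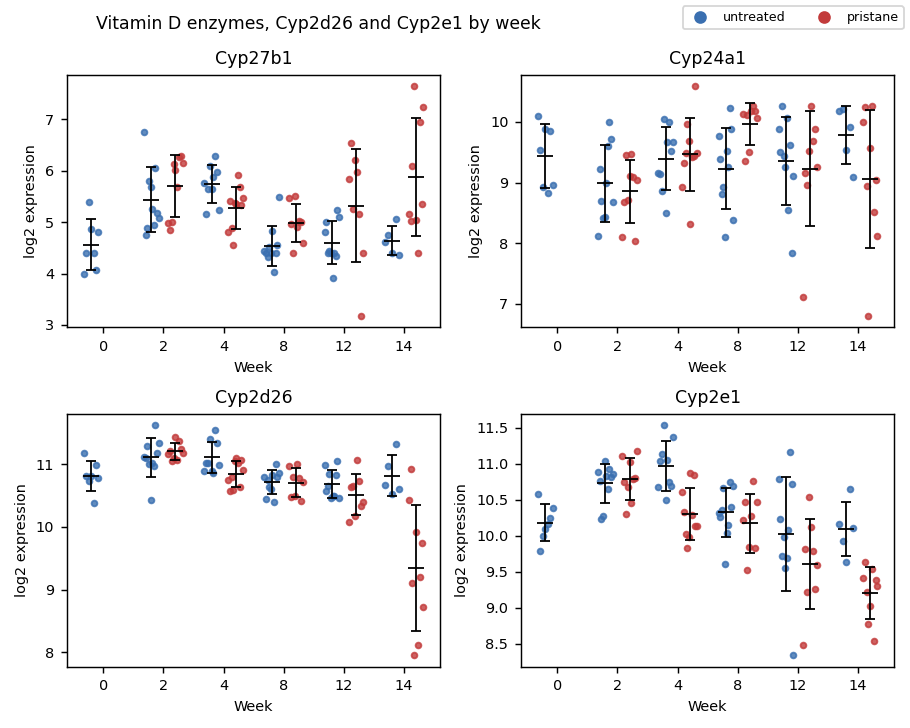
Log2 expression of Cyp27b1, Cyp24a1, Cyp2d26 and Cyp2e1 by week, 1 panel a gene, with a point for each mouse (untreated blue, pristane red) and bars for the mean and SD; axes do not start at 0. The pristane kidneys of week 14 spread from 4.40 to 7.65 for Cyp27b1 and from 7.95 to 10.93 for Cyp2d26, and 1 untreated kidney of week 12 stands at 8.34 for Cyp2e1.

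The remaining members with signal did not pass in any week. The retinoic acid hydroxylase Cyp26b1 differed by 0.35 at week 12 (adjusted p = 0.828) and 0.12 at week 14, and its untreated kidneys at week 8 ranged from 5.50 to 8.53. Cyp20a1 differed by 0.26 at week 2 and by -0.31 at week 4 (adjusted p = 0.497 and 0.873). Cyp2b10, a target of the xenobiotic receptor CAR, differed by 0.27 at week 14 (adjusted p = 0.228), with both groups between 3.57 and 4.70. Cyp2d22 differed by -0.33 at week 4 (adjusted p = 0.700) and -0.28 at week 14. The brightest CYP3a probe set, that of Cyp3a44, had a mean of 3.35 and differed by 0.17 at week 14.

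Partners of these enzymes were measured as well. At week 14, 8.31% of all probe sets passed, and 14.4% of those with a mean over 4. Of 7 genes for electron donors and microsomal partners, 3 fell and 1 rose at week 14. The cytochrome b5 genes Cyb5a and Cyb5b fell by 0.45 and 0.59 on the log2 scale (adjusted p = 0.0273 and 0.0423), as did Pgrmc1, a haem-binding partner, by 0.45 (adjusted p = 0.0376), and the reductase gene Cyb5r3 rose by 0.30 (adjusted p = 0.0458). Fdx1, the ferredoxin of mitochondrial P450 enzymes, differed by -0.41 (adjusted p = 0.0572), and Por was not analysed here. Of 11 genes of haem synthesis and breakdown 1 passed, the haem oxygenase Hmox1, which rose by 1.16 (adjusted p = 0.0327), and the median of the list was -0.35, beside 0.00 for all probe sets. Of 14 receptors and regulators of P450 genes 1 passed, Ppara, and Ahr, the receptor that activates Cyp1b1, differed by 0.20 (adjusted p = 0.366). Of 11 other genes of arachidonic acid metabolism 2 rose, Alox5ap, the 5-lipoxygenase activating protein of leukocytes, by 2.16 (adjusted p = 0.00703) and the phospholipase Pla2g4a by 0.73 (adjusted p = 0.0298). Ephx2, the soluble epoxide hydrolase that removes the products of CYP2c and CYP2j epoxygenases, differed by -0.67 (adjusted p = 0.0888).

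Markers of cell types moved in the same kidneys, where 8.31% of all probe sets passed, and 14.4% of those with a mean over 4. Of 12 proximal tubule markers 4 fell and 0 rose at week 14, with a median difference of -0.89, none of them had a mean under 4 in these kidneys, and their mean level was 10.89 to 11.12 in untreated kidneys and 9.04 to 11.01 after pristane. Of 10 macrophage and monocyte markers 8 rose and 0 fell, with a mean level of 4.54 to 5.05 without and 6.09 to 7.86 with pristane, and Itgam stood at or near the floor. Of 6 fibroblast markers 4 rose, with mean levels of 5.58 to 6.04 and 6.47 to 8.04, and Col1a2 stood at the floor on 84 arrays. Among other tubule segments, 2 of 3 distal convoluted tubule markers fell, with a median difference of -1.08. In the collecting duct and in the thick ascending limb 1 of 4 markers fell, with medians of -0.52 and -0.01. Of 6 lymphocyte markers 2 rose, and 0 of 3 podocyte and 0 of 3 fat markers passed. Of 6 liver markers 2 fell and 1 rose, and Alb, the albumin gene, fell by 1.10 (adjusted p = 0.0219). Pristane mice 1 and 2 had the highest proximal tubule means of the 9, 10.93 and 11.01, and the lowest macrophage means, 6.09 and 6.18. Mouse 4 had the lowest proximal tubule mean, 9.04, and also the lowest Cyp2d26, Cyp2a5 and Cyp24a1, none of which passed. Cyp2e1 and Cyp2c23, the members called lower, were each lowest in another pristane mouse. RNA came from whole kidneys, in which fewer cells of a type and less RNA per cell cannot be told apart, and the part of these cell types in the P450 differences was not tested.

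Untreated mouse 10 of week 12 differed from the other untreated kidneys in several of the same genes. Its values were 10.86 for Cyp1b1, 8.84 for Cyp4v3 and 7.27 for Cyp4f16, where the next highest untreated kidneys of that week had 9.35, 7.52 and 6.24. Its Cyp2e1 was 8.34, below the next lowest at 9.56. Cyp7b1 was 6.10 in this kidney, with the next highest at 5.81. Its Cyp2c23, at 6.30, lay within the range of the others, 6.19 to 6.78. Its macrophage marker mean was 7.71 and its fibroblast mean 7.06, the highest of the untreated kidneys of that week. Its array as a whole also stood apart, with the highest median of the 95 arrays, 4.57. Its best correlation with another array, 0.989, was the lowest of all arrays. Whether the gene values reflect the kidney or the array was not tested. Without this kidney 0 of 59 members passed at week 12, as with it, while 1.35% of all probe sets passed in place of 0.0244%. The difference of Cyp4v3 rose from 0.24 to 0.43 and that of Cyp4f16 from 0.19 to 0.32, neither past the threshold (adjusted p = 0.378 and 0.388). For Cyp2e1 the difference without this kidney was -0.61 (adjusted p = 0.493 in limma).

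The week 14 effect was compared with the week 12 effect by an interaction contrast. In limma 0 of the 59 members passed, as did 0 of 45037 probe sets (0%), and 13 members and 7136 probe sets had an unadjusted p under 0.05. The largest members by this measure other than Cyp2f2 were Cyp2d26 (-1.30, adjusted p = 0.112), Cyp4a31 (-1.08, adjusted p = 0.147) and Cyp2a5 (-0.90, adjusted p = 0.107). The 6 calls at week 14 are thus not shown to differ from week 12. Without pristane mouse 1 or 2 of week 14 the contrast gave 5 and 6 members, all lower. The share of all probe sets called in these fits was not taken, so the counts are not a result about the family.

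Levels also differed between weeks without pristane, where age and a possible array batch were not separated. In the untreated mice, 14 of 59 members (23.7%) passed a moderated F test over the 6 weeks, against 32.9% of all probe sets and 49.2% of those with a mean over 4. Of these 14, 13 were among the 24 members with a mean over 4, which is 54.2% of them. Without week 0 the number was 9 of 59 (15.3%), against 10.8% of all probe sets, and all 9 had a mean over 4 (37.5% of 24, against 17.8% of probe sets of that range).

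Cyp2a5 and Cyp4b1 had the smallest p in this test. Cyp2a5 ranged from 10.06 to 10.50, median 10.11, at week 0, and the lowest untreated kidney of any later week was 10.65. Its excess over week 0 was 0.72, 0.89, 0.97, 0.83 and 1.22 in the order of the later weeks (adjusted p = 1.59e-11 over the weeks). Cyp4b1 ranged from 8.48 to 9.56, median 9.42, at week 0 and from 9.71 to 11.39 later, with differences between 0.95 and 1.40 (adjusted p = 1.11e-08). At week 14 the pristane mean of Cyp2a5 was 10.67 and that of Cyp4b1 9.97, both between the untreated levels of week 0 and week 14.

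Cyp27b1 had a different course without pristane. Its untreated medians from week 0 to week 14 were 4.41, 5.21, 5.77, 4.42, 4.42 and 4.61. It exceeded week 0 by 0.87 and 1.18 at weeks 2 and 4 and differed from it by less than 0.08 after that (adjusted p = 6.99e-06, and 7.58e-05 without week 0). The pristane kidneys of weeks 2 and 4 had medians of 6.01 and 5.36. In the later weeks, in order, the pristane medians were 4.98, 5.54 and 5.36, and no pristane kidneys were taken at week 0. The higher level of weeks 2 and 4 with a later return was thus shown for untreated kidneys only.

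The other 11 members called over the weeks were Cyp4f13, Cyp2d22, Cyp2j5, Cyp39a1, Cyp2e1, Cyp2j6, Cyp4f18, Cyp2d26, Cyp2c23, Cyp4a31 and Cyp27a1. Cyp2d22 rose from a median of 5.86 at week 0 to 6.84 at week 2 and stood at 6.39 at week 12. Cyp2e1 was 0.79 above week 0 at week 4 and -0.15 from it at week 12. Cyp4f18 was the only one that was lower than week 0 in every later week, with differences of -0.29 to -0.37, at a level below 4.

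**Figure D4:**
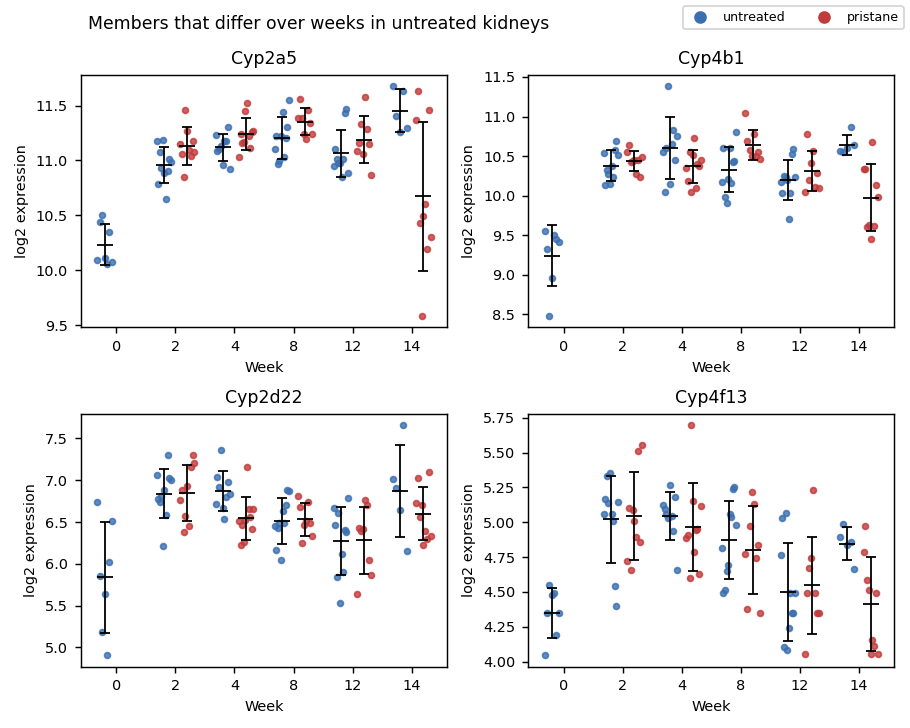
Log2 expression of Cyp2a5, Cyp4b1, Cyp2d22 and Cyp4f13 by week, 1 panel a gene, with a point for each mouse (untreated blue, pristane red) and bars for the mean and SD; axes do not start at 0. The untreated kidneys of week 0 lie below those of week 2 for Cyp2a5 and Cyp4b1, with a highest value of 10.50 at week 0 and a lowest value of 10.65 at week 2 for Cyp2a5.

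Cyp2f2, an enzyme of the airway club cells that activates naphthalene, was the member with the largest difference at week 2, 3.04 (SE 0.951), with an adjusted p of 0.372. Its untreated values at week 2 ran from 2.21 to 7.87, median 2.37, and its pristane values from 2.37 to 8.47, median 7.16. At weeks 4, 8 and 12 the difference had the opposite sign, with -1.24 (SE 1.09), -0.48 (SE 1.07) and -0.90 (SE 0.975), and none passed (adjusted p = 0.929, 1 and 0.828). The values moved with the adrenal gland markers, although the gene is outside the adrenal families that were left out. On the 54 arrays whose mean over 12 adrenal markers was 4.15 or lower, Cyp2f2 was at most 2.37, and on the 41 arrays where that mean was 4.57 or higher it was at least 2.69. Of the week 2 kidneys, 8 of 9 after pristane and 4 of 10 untreated were among these 41. With the adrenal marker mean as a covariate the difference was 0.16 (adjusted p = 1). The adrenal markers differed by a median of 2.26 at week 2, with 0 of 12 passed and 9 at an unadjusted p under 0.05. At week 14 the adrenal mean was high in pristane mice 4, 5 and 6 only, at 5.94, 5.30 and 4.93, and 3.61 or lower in the other 11 kidneys. With it as a covariate 0 members passed at week 14, and the differences were 1.05 for Cyp1b1, 0.63 for Cyp4v3, 0.67 for Cyp4f16, 0.82 for Cyp7b1, -0.82 for Cyp2e1 and -0.50 for Cyp2c23 (adjusted p from 0.0628 to 0.152). The share of all probe sets called with this covariate was not taken, so the count is not a result about the family. The covariate was high only in pristane kidneys at week 14 and is thus not separate from treatment.

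**Figure D5:**
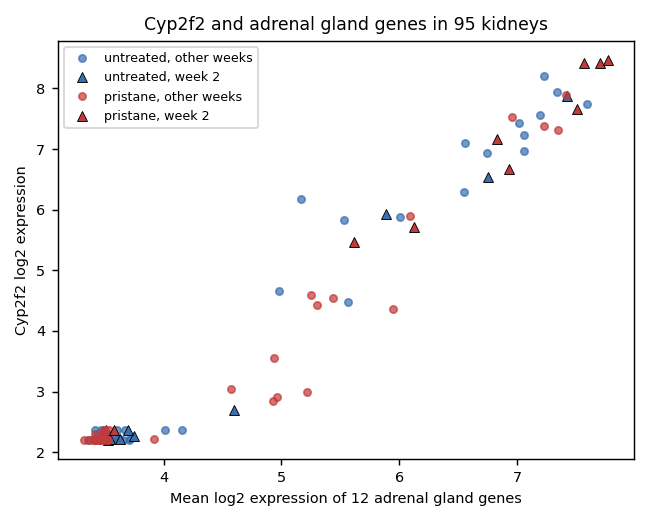
Cyp2f2 log2 expression against the mean log2 expression of 12 adrenal gland genes in the 95 kidneys, with triangles for week 2 and circles for other weeks (untreated blue, pristane red). Arrays with an adrenal mean of 4.15 or lower have Cyp2f2 values of at most 2.37, and those with 4.57 or higher lie between 2.69 and 8.47.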

How the data were processed

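Total RNA from whole kidneys of SNF1 mice was hybridised by the authors to Affymetrix HT MG-430 PM plates, 1 array per mouse (95 arrays). The deposited values are log2 expression, which the authors obtained by RMA normalization of probe intensities. The submitters' processing notes name RMA and Partek. The 104 control probe sets were left out, and a gene was named from the array annotation only where a probe set had 1 symbol. Values stop at 2.21, where 18.6% of them lie, and differences of genes at that floor are understated.

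Groups were taken from the labelled treatment and time point. In R 4.3.3 with limma 3.58.1, pristane and untreated mice of each week were fitted alone (lmFit and eBayes), with Benjamini-Hochberg adjustment over 45037 probe sets. A gene was called at an adjusted p under 0.05 whatever its fold. The change of effect from week 12 to week 14 was an interaction contrast, and untreated weeks were compared with week 0 by a moderated F. P-values measure the spread between these mice, and the number of arrays limits the precision.

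Named with values were all called members, the 5 largest differences of each week, the brightest member of each subfamily and genes of known role. The members, lists and tests were chosen with earlier results of these data known. Alternatives were median centring, quantile normalization, a filter on probe sets under the 40th percentile, a single fit of all groups, trended and robust eBayes, the replicate number as a block, an adrenal marker covariate, a fold change over 2, the mean of a gene's probe sets, all untreated mice as controls and leaving out each mouse. The sample labels used here name no scan or plate, and a batch between arrays was not tested. Same-numbered mice did not deviate together in most pairs. Correlations over 0.1 were found in 5 of 9, 3 of 9, 3 of 8, 1 of 8 and 2 of 5 pairs, in the order of the weeks. They ran from -0.14 to 0.28 at week 2, from -0.52 to 0.59 at week 4 and from -0.15 to 0.35 at week 14. Replicate numbers were not used as pairs. The fits were tested on simulated data.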

Additional observations from a re-analysis of the deposited data

Results flagged for a closer look

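Of 154 groups of 14 genes examined, 16 held a kidney set apart from the others of its group by Dixon's criterion, where chance gives about 1 in 20 groups. Untreated mouse 10 of week 12 was the highest of its group in Cyp1b1 (10.86, next 9.35), Cyp4v3 (8.84, next 7.52) and Cyp4f16 (7.27, next 6.24). Untreated mouse 4 of week 0 was the lowest in Cyp4v3 (5.85, next 6.59) and Cyp7b1 (5.00, next 5.32). Cyp7b1 also had a highest kidney apart in pristane week 2 (6.29), pristane week 8 (6.22) and untreated week 14 (5.74). Untreated mouse 4 of week 14 was the highest in Cyp2c23 (7.66, next 7.06) and in Cyp4b1 (10.87, next 10.64), and without this mouse the week 14 difference of Cyp2c23 was -0.45 in place of -0.59. Cyp2c23 was also apart in pristane week 2 (7.47) and untreated week 4 (7.29). Single low kidneys stood apart for Cyp2j5 in pristane week 2 (11.23, next 11.42) and for Cyp24a1 in pristane week 12 (7.11, next 8.95). Cyp2f2 had a low kidney in pristane week 2 (2.37, next 5.47) and a high one in pristane week 12 (7.52, next 2.99).

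Cyp4a10 had opposite effects in 2 weeks. Its pristane minus untreated difference was -0.21 at week 2, with all 9 pristane kidneys below the untreated mean, and 0.34 at week 12, with all 8 above it. The difference between these effects was not tested.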

How the results depend on the processing

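Of 31 gene differences recomputed, 27 kept their direction under every alternative run, and the 4 that reversed had not passed the test. With all untreated mice as controls the week 4 differences became 0.33 for Cyp27b1, 0.0076 for Cyp2d22 and 0.0061 for Cyp2f2, and with the adrenal covariate the week 8 difference of Cyp2f2 became 0.0296. At weeks 4 and 8 every alternative gave 0 members. At week 2 the count was 3 with all untreated mice as controls and 0 to 1 on leaving out a mouse (1 without untreated mouse 5). At week 12 it was 2 in a single fit of all groups, 3 with all untreated mice as controls and 0 to 0 on leaving out a mouse. At week 14 it was 18 in a single fit, 17 with all untreated mice, 1 with a fold change over 2, 0 with the adrenal covariate and 0 with the replicate block, whose pairing the data did not bear out, and it ranged from 0 to 11 on leaving out a mouse. The interaction gave 2 members with the filter on dim probe sets, 8 in a single fit and 0 to 6 on leaving out a mouse. For most of these alternative counts the share of all probe sets called was not taken, so they are not results about the family. Over untreated weeks the count was 14 to 16 on leaving out a mouse, 4 with a fold change over 2 and 9 without week 0, an alternative chosen after seeing the data, as was leaving out untreated mouse 10 of week 12. The cause of these changes was not tested, except that the fold threshold reduces the count by construction. Cyp2d26 and Cyp4b1 passed at week 14 with median centring (adjusted p = 0.0488 and 0.0329) and with the filter (0.0268 and 0.0217). For the 20 members at the floor on 84 or more of the 95 arrays a fall could not be measured, and week 14 held 5 untreated kidneys. A fall could hardly be measured either for Cyp2u1 and Cyp2c70, which held a single value just above the floor on most arrays.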
